A study of Mus musculus with 12 samples.

Results

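Ttr, Enpp2, Foxj1, Kl, Clic6 and Folr1, 6 genes best known from the choroid plexus and from ciliated ependymal cells, were followed across 12 RNA-seq libraries of primary mouse microglia. They were picked by name because their levels in these same libraries were already known to differ between brain regions, so their levels are given as a description, with no test. All 6 were found among the 46262 genes of the table, each with at least 1 library above 0. Ttr, Enpp2, Foxj1 and Folr1 also passed the filter on low values used further on, and Kl and Clic6 did not. The choroid plexus is the secretory epithelium of the brain ventricles that makes cerebrospinal fluid, and ependymal cells are the multiciliated cells that line the ventricle walls. Neither is a microglial cell type. Transthyretin, the product of Ttr, is secreted by choroid plexus epithelium in large amounts and carries thyroid hormone and the retinol-binding protein.

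The microglia were wild type (WT) and came from mixed glial cultures, in which microglia grow together with astrocytes and other glia of the neonatal brain before they are collected. Cerebellar cultures gave 3 libraries after IL-34 at 100 ng/ml and 3 after CSF-1 at 20 ng/ml, and forebrain cultures gave 3 after IL-34 and 3 after CSF-1 at the same doses, all after 24 hours. Both cytokines act through the receptor encoded by Csf1r. Within a group the 3 libraries stem from separate cultures, according to the series' design. No group went without a ligand, the ligands were used at different doses, and the labels name human tissue in the RNA extraction step although organism and cell type are given as mouse.

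The deposited values are TPM, the share of a library's RNA that a transcript takes after correction for its length, so the read depth behind them is unknown. They were summed per gene. Between 11740 and 11904 genes per library reached 1 TPM. Microglial genes dominated the marker lists, with Csf1r between 1130 and 1330 TPM in every library and 12 microglial markers summing to between 5200 and 5990 TPM in cerebellar libraries and between 5120 and 5670 TPM in forebrain libraries. Transcripts shorter than 600 nt held between 0.947 and 3.31% of the TPM in the 3 cerebellar IL-34 libraries, against between 0.0269 and 0.555% in the other 9. In bulk RNA of this kind, fewer cells of a type and less RNA per cell cannot be told apart.

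Ttr lies at chr18:20665280-20674321 on the plus strand of GRCm38, with 1 transcript of 4 exons in the table. Ttr was read at 21.0, 8.95 and 38.0 TPM in the cerebellar IL-34 libraries and at 17.1, 13.4 and 24.7 TPM in the cerebellar CSF-1 libraries. In forebrain cultures Ttr was at 0.24, 0 and 0.57 TPM with IL-34 and at 0.257, 0 and 0 TPM with CSF-1. Every cerebellar library thus stood above every forebrain library, and 3 of the 6 forebrain libraries listed Ttr at 0. The cerebellar mean was 20.5 ± 10.2 TPM (SD, n = 6), with a 4.24-fold span between its lowest and highest library. The log2(TPM + 1) difference between cerebellum and forebrain was 4.03 under IL-34 and 4.13 under CSF-1, with a standard error of 0.44 for each.

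Enpp2 encodes autotaxin, a secreted lysophospholipase D that makes the signalling lipid lysophosphatidate and is known from choroid plexus epithelium and from the oligodendrocyte lineage. The gene lies at chr15:54838901-54952892 on the minus strand. Enpp2 was at 10.6, 5.11 and 19.0 TPM in the cerebellar IL-34 libraries and at 10.8, 6.73 and 12.6 TPM in the cerebellar CSF-1 libraries. Forebrain libraries held 0.427, 0.359 and 0.119 TPM with IL-34 and 0.346, 0.247 and 0.286 TPM with CSF-1. The regions did not overlap, and unlike Ttr no forebrain library was at 0. The means were 10.8 ± 4.88 TPM in cerebellum and 0.298 ± 0.107 TPM in forebrain (SD, n = 6 each), a ratio of 36.3. On the log2(TPM + 1) scale the difference was 3.12 under IL-34 and 3.06 under CSF-1, each with a standard error of 0.38.

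**Figure D1:**
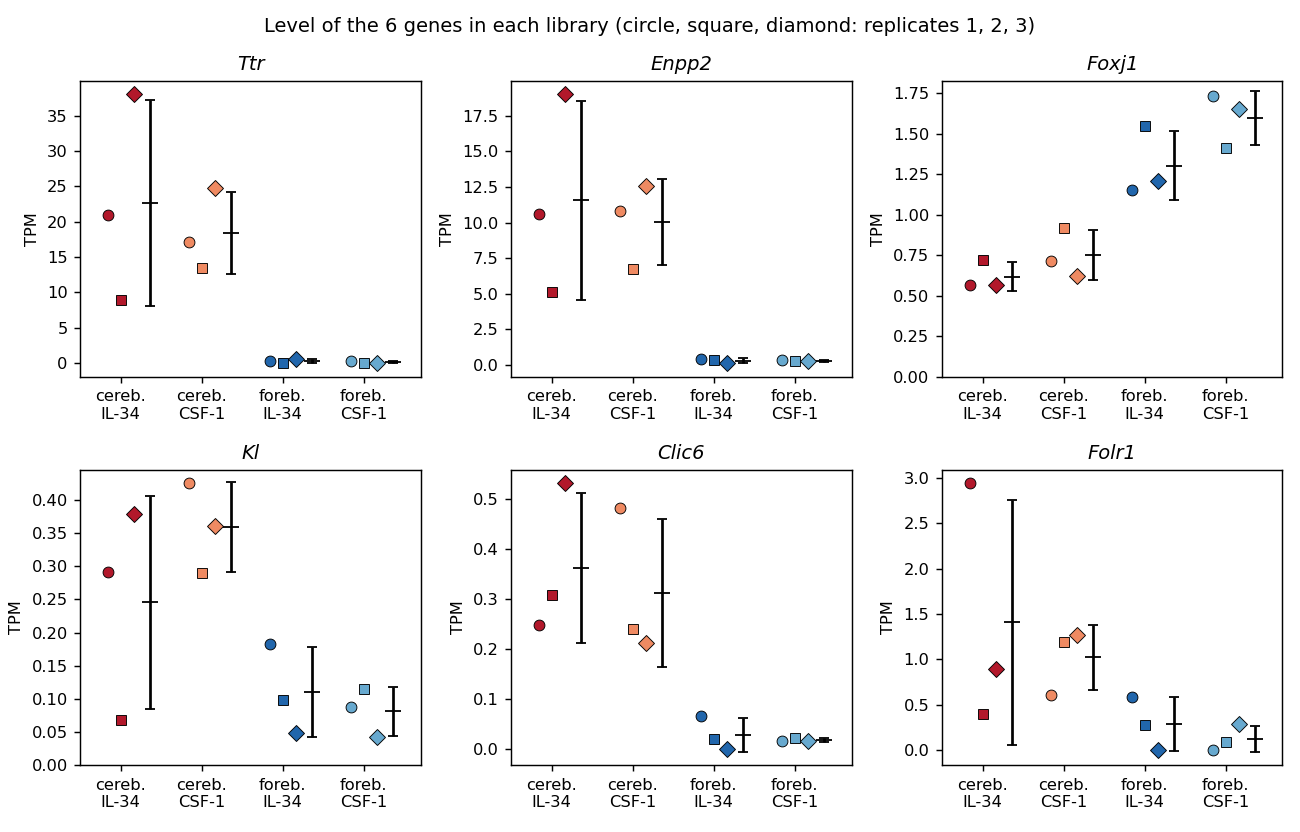
TPM of Ttr, Enpp2, Foxj1, Kl, Clic6 and Folr1 in each of the 12 libraries, by region and ligand, with circles, squares and diamonds for replicates 1, 2 and 3, the group mean with its SD as a bar beside them (n = 3), and an own axis for each panel. Ttr and Enpp2 stand between 5.11 and 38.0 TPM in cerebellar libraries and below 1 TPM in forebrain libraries, and the highest point of both is the third cerebellar IL-34 library, while Foxj1 runs the other way at low level.

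The table listed 4 Enpp2 transcripts, which differ by internal exons that are known from different autotaxin isoforms. The form with neither of these exons took 59.0% of the Enpp2 TPM summed over the 6 cerebellar libraries, and between 37.1 and 69.4% in single libraries. Forms with a 156 nt exon at chr15:54877776-54877931 took between 16.2 and 41.0%, with a median of 19.5%. The form with a 75 nt exon at chr15:54851348-54851422, the one long described as the brain form of the enzyme, took between 9.36 and 31.1%, with a median of 17.0%. All 4 transcripts were thus read in cerebellar libraries, but 1 with the 156 nt exon was at 0 in cerebellar IL-34 replicate 2 and cerebellar CSF-1 replicate 3. Which cells they came from was not tested. The shares spread widely between libraries of 1 group: the 75 nt form was at 31.1% in the first cerebellar IL-34 library and at 11.6% in the third. The exons are printed because their presence tells the forms apart, 5′ to 3′ on the transcript strand (GRCm38, GENCODE M21), with the exon in capitals and 20 nt of each neighbouring exon in lower case. Both have lengths that are multiples of 3 and are coding throughout.
Enpp2 156 nt exon: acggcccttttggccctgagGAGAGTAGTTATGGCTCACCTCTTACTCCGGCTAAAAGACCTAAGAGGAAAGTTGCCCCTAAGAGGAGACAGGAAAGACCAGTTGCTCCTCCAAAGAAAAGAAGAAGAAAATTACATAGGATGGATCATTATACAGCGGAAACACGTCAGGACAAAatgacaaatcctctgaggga
Enpp2 75 nt exon: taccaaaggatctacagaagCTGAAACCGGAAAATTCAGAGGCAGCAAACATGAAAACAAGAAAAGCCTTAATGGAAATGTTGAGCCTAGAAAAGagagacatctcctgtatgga

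**Figure D2:**
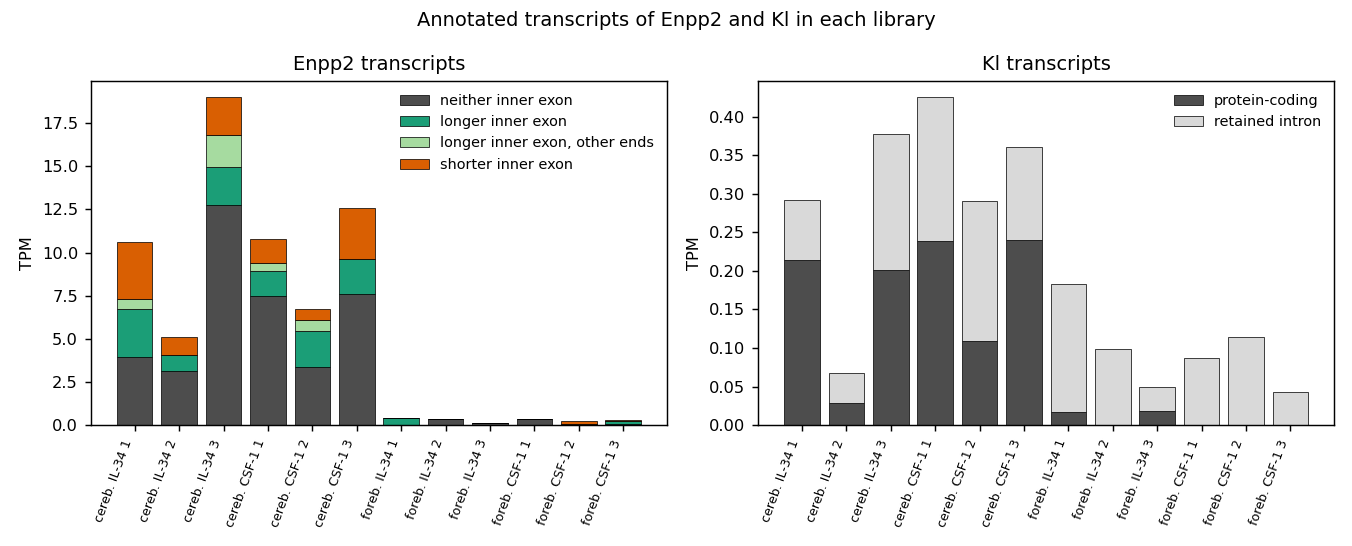
Stacked TPM of the 4 Enpp2 transcripts (left) and of the 2 Kl transcripts (right) in each of the 12 libraries, cerebellar libraries left of forebrain libraries; the longer and shorter inner exons are those of 156 and 75 nt. The Enpp2 form with neither makes up 37.1 to 69.4% of each cerebellar bar, and the protein-coding Kl transcript reaches 0.24 TPM in cerebellum and 0.0181 TPM in forebrain.

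Ttr and Enpp2 followed each other closely among the cerebellar libraries. The third cerebellar IL-34 library was highest and the second lowest for both genes. Pearson's r on log2(TPM + 1) was 0.983 and Spearman's rho 0.943 over the 6 cerebellar libraries, and r was 0.911 without the 2 libraries farthest from the median Ttr level. Leaving out any 1 library gave r between 0.966 and 0.997. The ratio of Enpp2 to Ttr stayed between 0.5 and 0.632 while Ttr varied 4.24-fold and Enpp2 3.72-fold. Over the 6 forebrain libraries, where both genes were near 0, r was -0.451. The libraries fall into 2 clusters by region, so the within-region values are the ones to read, and they rest on 6 libraries.

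The r of all other genes with Ttr gives the scale of such a value over 6 libraries. Of the 12416 tested genes that could be set against Ttr within cerebellum, 2 had an r at or above that of Enpp2, the median r was 0.0238 and the 95th percentile 0.627. The 2 were Ckap2 at r = 0.991 and Gemin2 at 0.986. Their cerebellar means of 1.87 and 11.2 TPM stood against forebrain means of 2.27 and 13.5 TPM, and in neither gene did the cerebellar mean exceed that of forebrain. For Enpp2 the genes ahead of Ttr were Rbm48 at 0.993, Bbip1 at 0.987 and Ckap2 at 0.984.

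Over all 12 libraries, where the regional difference sets most of the value, Enpp2 was the gene most like Ttr, with r = 0.992, and Ttr the gene most like Enpp2. Next for Ttr came Gpc1, a glypican of the cell surface, at 0.973, Slc7a11, the cystine and glutamate exchanger, at 0.972, and the immunoglobulin heavy chain gene Ighm at 0.967. For Enpp2 they were Gpc1 at 0.974, Slc7a11 at 0.967, Ighm at 0.963 and the neural adhesion molecule gene Nrcam at 0.959. The regional steps of these genes were smaller than those of Ttr and Enpp2. Gpc1 averaged 5.05 TPM in cerebellum and 1.68 TPM in forebrain, and Slc7a11 averaged 35.7 TPM in cerebellum and 14.2 TPM in forebrain.

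**Figure D3:**
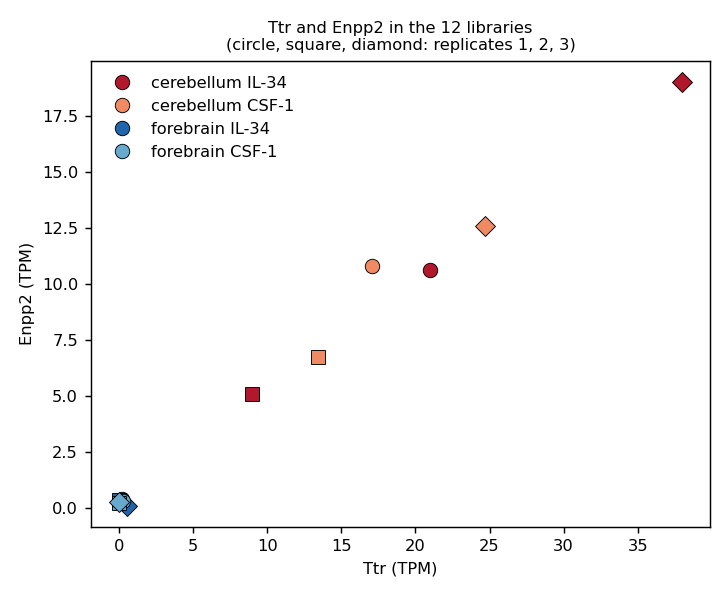
Enpp2 against Ttr in each of the 12 libraries, both axes in TPM, with 1 colour per group and circles, squares and diamonds for replicates 1, 2 and 3. The 6 cerebellar libraries lie along a line (r = 0.983 on the log2(TPM + 1) scale) and the 6 forebrain libraries lie together near 0.

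Clic6, Kl and Folr1, which are also enriched in choroid plexus epithelium, were present at much lower levels. Clic6, a member of the chloride intracellular channel family at chr16:92485736-92541243 (plus strand), was at 0.248, 0.308 and 0.532 TPM in cerebellar IL-34 libraries and at 0.482, 0.241 and 0.213 TPM in cerebellar CSF-1 libraries. Forebrain libraries held 0.0667, 0.0203 and 0 TPM with IL-34 and 0.0171, 0.0222 and 0.0169 TPM with CSF-1. The regions did not overlap. On the log2(TPM + 1) scale the difference was 0.40 under IL-34 and 0.36 under CSF-1 (standard error 0.09 each).

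Kl, at chr5:150952607-150993817 on the plus strand, encodes klotho, a membrane protein that serves as co-receptor for the hormone FGF23 and is made in kidney and choroid plexus. Kl was at 0.291, 0.0678 and 0.378 TPM in cerebellar IL-34 libraries and at 0.425, 0.29 and 0.361 TPM in cerebellar CSF-1 libraries, against 0.183, 0.0984 and 0.049 TPM in forebrain IL-34 libraries and 0.0876, 0.115 and 0.0424 TPM in forebrain CSF-1 libraries. The regions overlapped through the second cerebellar IL-34 library. The mean was 3.15 times higher in cerebellum, and the log2(TPM + 1) difference was 0.16 under IL-34 and 0.33 under CSF-1 (standard error 0.09 each). The IL-34 value was 0.27 without cerebellar IL-34 replicate 2 and 0.08 without replicate 3. The overlap came from a transcript annotated with a retained intron, at between 0.0386 and 0.186 TPM in cerebellum and between 0.0309 and 0.166 TPM in forebrain. The protein-coding transcript lay between 0.0291 and 0.24 TPM in cerebellum and between 0 and 0.0181 TPM in forebrain, where 4 of 6 libraries listed it at 0, and for that transcript the regions did not overlap.

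Folr1, at chr7:101858331-101870788 on the minus strand, encodes the folate receptor that carries folate across the choroid plexus. It was at 2.94, 0.395 and 0.892 TPM in cerebellar IL-34 libraries and at 0.608, 1.19 and 1.27 TPM in cerebellar CSF-1 libraries. Forebrain libraries held 0.59, 0.279 and 0 TPM with IL-34 and 0, 0.0977 and 0.286 TPM with CSF-1. The regions overlapped, since the second cerebellar IL-34 library lay below the first forebrain IL-34 library. Of the 16 Folr1 transcripts listed, 1 of 580 nt held 2.35 TPM in the first cerebellar IL-34 library and was listed at 0 in the other 11. That library's Folr1 level therefore rests mostly on a short transcript, the length class that was raised in the cerebellar IL-34 libraries. The log2(TPM + 1) difference of cerebellum against forebrain was 0.79 under IL-34 and 0.83 under CSF-1 (standard error 0.34 each), and the IL-34 value was 0.36 without cerebellar IL-34 replicate 1.

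Foxj1 departed from the other 5. It encodes the forkhead transcription factor that multiciliated cells, ependymal cells among them, need to build motile cilia, and lies at chr11:116330704-116335399 on the minus strand. Foxj1 was at 0.566, 0.719 and 0.565 TPM in cerebellar IL-34 libraries and at 0.717, 0.917 and 0.62 TPM in cerebellar CSF-1 libraries. Forebrain libraries held 1.15, 1.55 and 1.21 TPM with IL-34 and 1.73, 1.41 and 1.65 TPM with CSF-1. All 6 cerebellar libraries lay below all 6 forebrain libraries, and the forebrain mean was 2.12 times the cerebellar one. The log2(TPM + 1) difference of cerebellum against forebrain was -0.51 under IL-34 and -0.57 under CSF-1 (standard error 0.11 each).

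In all, 3 of the 6 genes (Ttr, Enpp2 and Clic6) had every cerebellar library above every forebrain library, and 1 (Foxj1) had the reverse. Among the 25599 genes above 0 in any library the shares were 1.54% and 2.32%. Because the genes were picked for this contrast, nothing is read from their count. Within the cerebellar libraries, r with Ttr was 0.742 for Kl, 0.377 for Clic6, 0.361 for Folr1 and -0.682 for Foxj1. With Enpp2 it was 0.785 for Kl, 0.497 for Clic6, 0.256 for Folr1 and -0.695 for Foxj1. The close relation of Ttr and Enpp2 thus did not extend to the set as a whole, and the levels of the other 4 genes were below 3 TPM.

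IL-34 and CSF-1 libraries overlapped for each of them within cerebellum and within forebrain. The log2(TPM + 1) difference of IL-34 against CSF-1 in cerebellum was 0.11 for Ttr (standard error 0.44) and 0.06 for Enpp2 (0.38), and it lay between -0.13 for Kl and 0.13 for Folr1 in the other 4. In forebrain it was 0.21 for Ttr and 0 for Enpp2, with the same standard errors. With 3 libraries per group, a ligand effect on Ttr or Enpp2 about as small as these standard errors was not detectable. The region by ligand difference was -0.10 for Ttr (standard error 0.62) and 0.06 for Enpp2 (0.53).

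A list of 40 further choroid plexus epithelium genes was examined next, without the 6 above. The list was written with the regional difference of Ttr and Enpp2 known. Of its genes 39 were matched, all above 0 in some library, but most at a small fraction of 1 TPM. In 11 of 39, 28.2%, all 6 cerebellar libraries lay above all 6 forebrain libraries, against 1.54% of all genes, and 0 of 39 had the reverse, against 2.32% of all genes. All 11 were among the 27 list genes with a mean of 0.1 to 2 TPM, where the background was 0.956% for cerebellum above forebrain and 2.03% for the reverse.

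The 11 genes of the choroid plexus epithelium list are named here after their values were seen. In its other matched genes the libraries of the regions overlapped. Slc4a10, a sodium bicarbonate transporter of this epithelium, was at 0.836, 0.87 and 0.904 TPM in cerebellar IL-34 libraries and at 0.858, 0.662 and 1.16 TPM in cerebellar CSF-1 libraries, while forebrain libraries ranged from 0 to 0.0996 TPM. Krt18 and Krt8, the keratins of simple epithelia, were at 0.569 to 2.8 TPM and 0.273 to 0.812 TPM in cerebellum, whereas Krt18 was listed at 0 in all 6 forebrain libraries and Krt8 reached at most 0.0984 TPM there. Otx2, a homeobox transcription factor needed for choroid plexus development, was at 0.149 to 0.983 TPM in cerebellum and 0 to 0.115 TPM in forebrain. Msx1, another homeobox gene, was at 0.498 to 1.58 TPM in cerebellum and 0.0402 to 0.428 TPM in forebrain.

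Among transporters and enzymes, Slco1c1, a thyroid hormone carrier, was at 0.146 to 0.772 TPM in cerebellum and 0 to 0.0976 TPM in forebrain. Slc29a4, a monoamine and nucleoside transporter, was at 0.203 to 0.956 TPM in cerebellum and at 0 in 5 of 6 forebrain libraries. Ace, the angiotensin-converting enzyme, was at 0.264 to 0.969 TPM in cerebellum and 0 to 0.0704 TPM in forebrain. The other 3 were Perp, a desmosomal protein of epithelia, Vat1l, and Sulf1, an extracellular sulfatase that trims heparan sulfate. Perp averaged 1.02 ± 0.448 TPM in cerebellum and 0.149 ± 0.0833 TPM in forebrain (SD, n = 6 each). Kcne2, a potassium channel subunit, was listed at 0 in 1 of 6 cerebellar libraries, reached 0.557 TPM in the highest of them, and was listed at 0 in all forebrain libraries.

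The members of the list with the highest levels did not show this pattern. Cab39l, a scaffold protein of the kinase LKB1, Rdh5, a retinol dehydrogenase, Trpv4, a calcium channel, and Tmem72 led the list by mean level. Cab39l averaged 36.7 ± 4.06 TPM in cerebellum and 43.4 ± 2.18 TPM in forebrain (SD, n = 6 each), and Trpv4 averaged 4.28 ± 0.563 TPM in cerebellum and 5.57 ± 0.586 TPM in forebrain. Rdh5 was at 13.9, 27.0 and 6.08 TPM in cerebellar IL-34 libraries, against 3.57 to 5.01 TPM in cerebellar CSF-1 and 1.75 to 6.92 TPM in forebrain libraries. Summed over the list, levels of 67.4 to 78.1 TPM in cerebellum stood against 58.9 to 68.1 TPM in forebrain, and Cab39l made up 42.4 to 57.1% of the sum in cerebellum and 64.9 to 73.7% in forebrain.

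**Figure D4:**
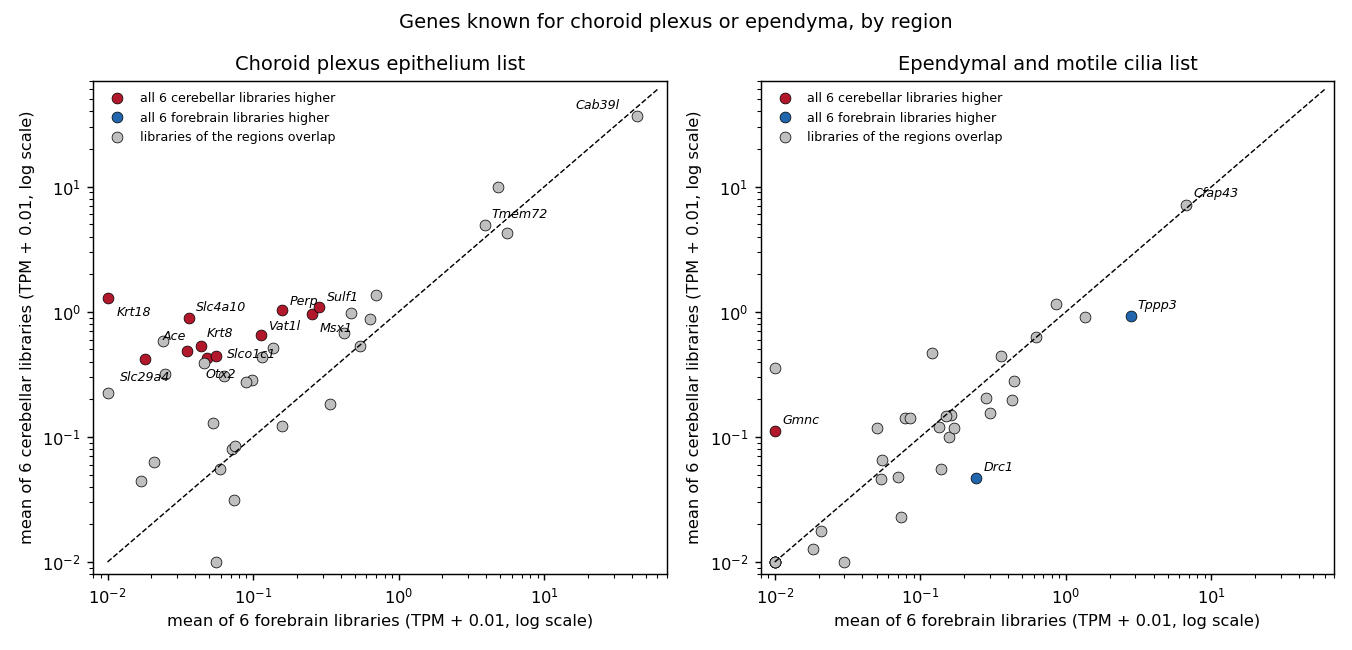
Mean over the 6 cerebellar libraries (vertical) against the mean over the 6 forebrain libraries (horizontal) for each gene of the choroid plexus list (left) and of the ependymal and motile cilia list (right), as TPM + 0.01 on log axes, with a dashed line where the means are equal. Red points are genes with all cerebellar libraries higher (11 on the left, 1 on the right), and blue points those with all forebrain libraries higher (0 and 2).

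The limma test across the 12419 genes that had 1 TPM or more in 3 or more libraries reached only 8 genes of the choroid plexus list. Perp, higher in cerebellum under CSF-1 by 0.92 (log2(TPM + 1), standard error 0.22, limma adjusted p = 0.034), reached 1 TPM in 3 cerebellar and 0 forebrain libraries. It thus passed the filter only through the region where it stood higher and is left out of the count. Col8a1 (3 cerebellar and 1 forebrain library at 1 TPM), Steap1 (2 and 1) and 1500015O10Rik (5 and 2) also needed cerebellar libraries to pass. They were not called and stay in the count. Of the 7 genes other than Perp, 1 was higher under CSF-1, Tmem72 by 0.48 (standard error 0.12, limma adjusted p = 0.0407), and 0 were lower, where 3.29% of all tested genes were higher and 3.42% lower. Under IL-34, 0 of 7 were higher and Cab39l was lower by -0.31 (standard error 0.07, limma adjusted p = 0.0136), where 5.27% of all tested genes were higher and 8.22% lower. Perp could be tested in only 14 of 17 alternative fits, since leaving out any of its 3 libraries at 1 TPM took it below the filter. Where it was still tested, leaving out any of 5 libraries ended the Perp call (cerebellar CSF-1 replicate 2, any forebrain CSF-1 replicate, forebrain IL-34 replicate 2). Leaving out cerebellar IL-34 replicate 1 or 2 ended the call of Cab39l. The adjusted p was up to 0.106 for Perp and 0.0532 for Cab39l. The Tmem72 call was held in 6 of 17 alternative fits, with adjusted p up to 0.146, and leaving out any library other than cerebellar IL-34 replicate 1, cerebellar CSF-1 replicate 3 and forebrain IL-34 replicate 1 ended it.

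Without the filter on low values all 39 genes could be tested, among 25599. In that limma fit 4 of 39 were higher in cerebellum under CSF-1 and 0 lower, against 1.09% and 1.23% of all genes. Under IL-34, 2 of 39 were higher and 1 (Cab39l) lower, against 1.59% and 3.0% of all genes. Slc4a10 was higher by 0.84 under IL-34 (adjusted p = 0.000809) and by 0.91 under CSF-1 (adjusted p = 0.0007), and both calls held in each of 14 further unfiltered fits. Vat1l was higher by 0.45 under IL-34 (adjusted p = 0.0337) and by 0.68 under CSF-1 (adjusted p = 0.00717), and its CSF-1 call held in all 14, while leaving out cerebellar IL-34 replicate 1 or 3, any forebrain IL-34 replicate or forebrain CSF-1 replicate 1 ended the other (adjusted p up to 0.107). Sulf1 and Perp were higher under CSF-1 by 1.08 and 0.92 (adjusted p = 0.0185 and 0.0443), and the Sulf1 call ended without cerebellar CSF-1 replicate 2 or 3 or forebrain CSF-1 replicate 1 or 3 (adjusted p up to 0.0701). The Perp call in this fit ended without any library but cerebellar IL-34 replicates 1 and 3 (adjusted p up to 0.136). The median log2(TPM + 1) difference of the list was 0.29 under IL-34 and 0.35 under CSF-1, where that of all genes rounded to 0.

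Within the cerebellar libraries, 25 of the 30 list genes above 0 in all 6 had a positive r with Ttr, with a median of 0.454. Of all 14724 such genes 52.6% were positive, with a median of 0.0239. The highest were Spint2, a serine protease inhibitor of epithelia, at 0.913 and Krt18 at 0.896, and the lowest was the bicarbonate transporter gene Slc4a5 at -0.786. These values share the same 6 libraries and many rest on levels under 1 TPM.

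The ependymal and motile cilia list behaved differently. Of 35 genes matched, 30 were above 0 in some library, as were 25599 of all 46262 genes. In all forebrain libraries 7 of the 35 were listed at 0, and in all cerebellar libraries 6, and Tmem212, Dynlrb2, Tekt4, Fam183b and Sntn, genes of ciliated cells, were at 0 in all 12. In 1 of 30, 3.33%, all cerebellar libraries lay above all forebrain libraries (Gmnc, a regulator of multiciliation, at 0.0226 to 0.181 TPM in cerebellum and at 0 in forebrain), against 1.54% of all genes. In 2 of 30, 6.67%, the reverse held, against 2.32% of all genes. These were Tppp3, a microtubule-binding protein, at 0 to 1.35 TPM in cerebellum and 2.0 to 3.5 TPM in forebrain, and Drc1, a part of the axonemal dynein regulatory complex, at 0 to 0.0892 TPM in cerebellum and 0.103 to 0.547 TPM in forebrain.

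Of 5 ependymal list genes that limma could test, 0 were higher and 1 was lower in cerebellum under CSF-1, against 3.29% and 3.42% of all tested genes. The 1 was Tppp3, lower by -1.15 (standard error 0.29, limma adjusted p = 0.038). That call was held in 7 of 17 alternative fits, with adjusted p up to 0.126, and ended without any cerebellar IL-34 replicate, without cerebellar CSF-1 replicate 1 or 3 or without forebrain CSF-1 replicate 1 or 3. Under IL-34 0 of 5 passed, where 5.27% of all tested genes were higher and 8.22% lower. Cfap43, a protein of the ciliary axoneme and the most abundant gene of the list, averaged 7.19 ± 0.657 TPM in cerebellum and 6.68 ± 0.362 TPM in forebrain (SD, n = 6 each). Over 13 list genes above 0 in all cerebellar libraries, r with Ttr was positive in 5, with a median of -0.139. Of the 35 motile cilia genes 5 passed the filter on low values, beside 8 of the 39 choroid plexus list genes and 12419 of all 46262 genes. Whether Foxj1 came from ependymal cells was not tested.

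Markers of other cells that mixed glial cultures hold also differed between regions. Astrocyte markers summed to 17.0 to 22.1 TPM in cerebellum and 30.8 to 34.9 TPM in forebrain, the same direction as Foxj1. S100b, a calcium-binding protein of astrocytes, ran the other way, at 0.159 to 0.836 TPM in cerebellum and 0 to 0.0822 TPM in forebrain. Of 8 tested, Gfap, Aldoc and Gja1 were lower in cerebellum under both ligands by limma. Of all tested genes 8.22% were lower under IL-34 and 3.42% under CSF-1. In the astrocyte list 0 were higher, against 5.27% and 3.29%. Sox9 was lower too, but reached 1 TPM in 1 cerebellar and 6 forebrain libraries. It thus passed the filter only through the region where it stood higher and is not counted with them. With 1 library left out, and with Sox9 included, 2 to 4 were lower under IL-34 and 1 to 4 under CSF-1. The 1 was reached without cerebellar CSF-1 replicate 1 or any forebrain CSF-1 replicate, and the 2 under IL-34 without cerebellar IL-34 replicate 1 or 2 or forebrain IL-34 replicate 1. Without the filter, 3 of 13 were lower under IL-34 and 2 of 13 under CSF-1, against 3.0% and 1.23% of all genes in that fit. Gfap, the astrocyte filament protein, was lower by -0.85 under IL-34 (adjusted p = 0.00643) and by -0.71 under CSF-1 (adjusted p = 0.026, up to 0.0891 without any forebrain CSF-1 replicate or cerebellar CSF-1 replicate 1 or 3). Aldoc, a glycolytic enzyme of astrocytes, was lower by -1.29 (adjusted p = 0.000526) under IL-34 and -0.84 under CSF-1 (adjusted p = 0.00946). The Gja1 call held in 13 of 17 alternative fits under IL-34 and in 7 under CSF-1, where leaving out any CSF-1 library ended it (adjusted p up to 0.119). For Sox9 the limma fit without the filter is given. There it was lower by -0.58 under IL-34 (adjusted p = 0.0408) and by -0.63 under CSF-1 (adjusted p = 0.0443). These Sox9 calls held in 4 and 2 of 14 further unfiltered fits, with adjusted p up to 0.114 and 0.154. The r of Gfap with Foxj1 was 0.825 within cerebellum and 0.732 within forebrain, and that of Aldoc 0.0624 and 0.0627. For Aqp4 it was 0.482 and 0.613, for Gja1 0.412 and 0.163, and for Sox9 -0.116 and 0.516. Their part in the Foxj1 difference was not tested.

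Oligodendrocyte markers, the other known source of Enpp2, summed to 140 to 176 TPM in cerebellum and 127 to 153 TPM in forebrain. In the limma fit without the filter on low values, 3 of 18 were higher in cerebellum under both ligands, against 1.59% of all genes under IL-34 and 1.09% under CSF-1. In that fit 1, Olig1, was lower, against 3.0% and 1.23%. Mbp, the myelin basic protein gene, was higher in the filtered fit by 0.60 under IL-34 and 0.78 under CSF-1 (limma adjusted p = 0.000642 and 0.000138). Within cerebellum, r with Enpp2 was 0.0736 for Mbp and -0.429 for Mobp, both below the 0.983 of Ttr, and the myelin genes Mog and Cldn11 were listed at 0 in all forebrain libraries and Opalin in all cerebellar libraries. The part of these cells in the Enpp2 level was not tested.

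Meningeal and stromal markers summed to 10.6 to 17.0 TPM in cerebellum and 14.4 to 22.5 TPM in forebrain, ranges that overlapped. Of the 20 above 0 in any library, 1 (5.0%) had all cerebellar libraries above all forebrain libraries, against 1.54% of all genes. The reverse held in 0, against 2.32% of all genes. Slc6a13 and Mgp were listed at 0 in all forebrain libraries, Lum in all cerebellar libraries and Crabp2 in both. The 1 gene was Ptgds, the prostaglandin D synthase of meninges and choroid plexus. It was at 4.33, 2.79 and 2.97 TPM in cerebellar IL-34 libraries and at 0.893, 2.22 and 1.12 TPM in cerebellar CSF-1 libraries, and was listed at 0 in all 6 forebrain libraries. Ptgds passed the filter on low values only through cerebellum, so the limma fit without that filter is given, where the difference was 2.11 under IL-34 (adjusted p = 0.000446) and 1.23 under CSF-1 (adjusted p = 0.0111). Endothelial markers summed to 10.6 to 14.0 TPM in cerebellum and 7.33 to 12.2 TPM in forebrain, with Cldn5 and Ly6c1 listed at 0 everywhere, and neuronal markers to 0.913 to 1.86 TPM in cerebellum and 2.13 to 4.87 TPM in forebrain.

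The partners of each gene were then examined in the limma fit with the filter on low values, in the order of the pathways they belong to. Of all genes tested there, 5.27% were higher and 8.22% lower in cerebellum under IL-34, and 3.29% higher and 3.42% lower under CSF-1. Lysophosphatidate, the product of autotaxin, is sensed by the Lpar receptors and broken down by the Plpp phosphatases. Of 8 such genes tested, Lpar6 was higher in cerebellum under both ligands, by 0.31 under IL-34 (adjusted p = 0.0356) and 0.45 under CSF-1 (adjusted p = 0.0102), and Lpar5 under CSF-1 by 0.54 (adjusted p = 0.0113). Lpar6 averaged 44.4 ± 3.93 TPM in cerebellum and 33.8 ± 2.31 TPM in forebrain (SD, n = 6 each), more than Enpp2 itself. Plpp1 was lower by -0.50 under IL-34 (adjusted p = 0.0137) and -0.60 under CSF-1 (adjusted p = 0.00916), and Enpp4, a relative of autotaxin, by -0.71 and -0.49 (adjusted p = 0.000737 and 0.0091). Enpp1 was lower under IL-34 by -0.44 (adjusted p = 0.0498), a call held in 3 of 17 alternative fits and, with 1 library left out, only without cerebellar IL-34 replicate 2. Leaving out 1 library ended the Lpar6 call under IL-34 in 5 cases (each cerebellar IL-34 replicate and forebrain IL-34 replicates 2 and 3), the Lpar5 call in 2 (cerebellar CSF-1 replicate 2 and forebrain CSF-1 replicate 1) and the Plpp1 call under IL-34 in 1 (cerebellar IL-34 replicate 1).

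Of the genes around folate, all 8 were tested. Folr2, the folate receptor of macrophages, ran against Folr1. It was at 20.6, 21.0 and 23.9 TPM in cerebellar IL-34 libraries and at 25.9, 25.9 and 24.7 TPM in cerebellar CSF-1 libraries, against 76.0, 74.8 and 70.6 TPM in forebrain IL-34 and 93.9, 85.9 and 92.8 TPM in forebrain CSF-1 libraries. The limma difference was -1.71 under IL-34 (adjusted p = 1.45e-07) and -1.79 under CSF-1 (adjusted p = 1.34e-07), and it held in all 17 alternative fits of each. Folr2 also marks border-associated macrophages, the macrophages of meninges and choroid plexus, and F13a1 of the same list was lower by -2.12 under IL-34 and -2.05 under CSF-1 (adjusted p = 6.53e-07 and 1.48e-06). The 12 markers of that list summed to 2390 to 2980 TPM in cerebellum and 2490 to 2840 TPM in forebrain, so the list as a whole overlapped. In 5 of 12, 41.7%, all forebrain libraries lay above all cerebellar libraries, against 2.32% of all genes. The reverse held in 0, against 1.54% of all genes. Folr2 and F13a1 were lower in the region where Ttr and Enpp2 stood higher, and their part in those levels was not tested.

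For the others the calls, to be read beside the same shares of all tested genes, were few. Of 3 genes tested among the thyroid hormone and retinol partners of Ttr, 0 passed in either regional comparison. Slco1c1, already counted in the choroid plexus list, was the 1 of 11 genes above 0 (9.09%) with all cerebellar libraries higher, against 1.54% of all genes. The reverse held in 0 of 11, against 2.32% of all genes. Among 2 relatives of Clic6 tested, Clic4 was higher by 0.25 under IL-34 and by 0.28 under CSF-1 (limma adjusted p = 0.0184 and 0.0151), and Clic1 was lower by -0.17 under CSF-1 (adjusted p = 0.0367). The Clic4 call ended without cerebellar IL-34 replicate 2 or forebrain IL-34 replicate 2 or 3 under IL-34, and without cerebellar or forebrain CSF-1 replicate 1 under CSF-1, and that of Clic1 held in 8 of 17 alternative fits. Of 6 klotho and FGF receptor genes tested, the shedding proteases Adam10 and Adam17 were lower under IL-34, by -0.37 and -0.18 (adjusted p = 0.007 and 0.0274), and the Adam17 call ended without any cerebellar IL-34 replicate or forebrain IL-34 replicate 1. Of 3 regulators of multiciliation tested, 0 passed.

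Between the ligands, calls in these lists were likewise few. In cerebellum, where limma called 3.0% of all tested genes higher and 9.82% lower with IL-34 (373 and 1220 genes, a balance that turned to 710 and 483 with median-of-ratios scaling), Cab39l was the 1 of 8 choroid plexus list genes to pass, lower by -0.24 (adjusted p = 0.0437), a call held in 4 of 17 alternative fits and, with 1 library left out, only without cerebellar IL-34 replicate 3 or forebrain IL-34 replicate 1. None of the 5 ependymal list genes passed. In forebrain, where 0.427% of tested genes were higher and 0.773% lower (53 and 96 genes, and 139 and 114 with median-of-ratios scaling), 0 of the 8 and 0 of the 5 passed, and 0 of either list had a region by ligand difference, against 0.145% of all tested genes.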

How the data were processed

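RNA was measured in 12 libraries of mouse microglia, 3 in each of 4 groups. The labels' protocols name the SMART-Seq v4 chemistry for cDNA. The authors deposited TPM per Ensembl transcript, made with kallisto 0.43.0 on GRCm38 per the submitters' processing notes; no source used here gives the annotation release. TPM rescales every library to the same total, so depth is unknown and no counting interval can be given, and each value depends on all others of its library. Transcripts that share sequence are divided by estimation, which bears on the Enpp2, Kl and Folr1 transcripts.

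TPM was summed per gene. Of 115879 transcripts, 114255 (98.6%) were matched to GENCODE M21 for length, exons and position. No 2 libraries held identical values. limma 3.58.1 in R 4.3.3 was run on log2(TPM + 1) with 4 group means, a variance trend, 8 residual degrees of freedom and two-sided Benjamini-Hochberg adjusted p-values over the 12419 genes that had 1 TPM or more in 3 or more libraries, called below 0.05, and it was tested on simulated data. Differences on this scale understate those of low genes. Every adjusted p in the text is from limma.

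The 6 genes and all lists were chosen with earlier results of these data known. Named are the 6 genes in every library, for each list up to 4 genes with the smallest p among those called and up to 4 with the highest mean, and the 5 genes with the highest Pearson r with Ttr or Enpp2; others are said to be named after their values were seen. A gene that this rule would name is not reported here. Cfap65 was matched by its older symbol and 1 choroid plexus list gene was not matched. The alternatives covered the pseudocount, filter, scaling, transcript length, replicate block and leaving out each library.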

Additional observations from a re-analysis of the deposited data

Results flagged for a closer look

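Sulf1, 1 of the choroid plexus list genes with all cerebellar libraries above all forebrain libraries, had ligand differences of opposite sign in the 2 regions, neither of which passed. In cerebellum it was at 0.647, 0.504 and 0.567 TPM with IL-34 and at 0.733, 2.0 and 2.08 TPM with CSF-1, a log2(TPM + 1) difference of -0.68. In forebrain it was at 0.306, 0.328 and 0.427 TPM with IL-34 and at 0.161, 0.267 and 0.158 TPM with CSF-1, a difference of 0.18. Within each region the ligand groups did not overlap, with 3 libraries each, and the share of all genes with such a separation between ligands was not counted. Sulf1 was below the filter on low values, so the difference between regions was not tested in the filtered limma fit. In the fit without that filter it was -0.86 (standard error 0.27), with a limma adjusted p of 0.474, and did not pass. The ligand differences there had a limma adjusted p of 0.0862 in cerebellum and 0.832 in forebrain (standard error 0.19 each).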

How the results depend on the processing

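All levels rest on TPM without depth, on 3 libraries per group, and mostly on values under 1 TPM outside Ttr and Enpp2. The regional differences of the 6 genes kept their sign under each alternative run; of 420 alternative values for these genes 400 moved by less than 1 SD and 20 moved by more, all 20 with a pseudocount of 0.1, where the difference of Ttr was 6.10 under IL-34 and 6.88 under CSF-1. The correlation of Ttr and Enpp2 in cerebellum ranged over 0.966 to 0.997 when 1 library was left out. Of 59 calls of listed genes, 29 held in every alternative fit that tested the gene and none changed sign. For the numbers of genes called, the cause of each change was not tested. IL-34 against CSF-1 called 149 genes in forebrain (87 without a filter, 253 with median-of-ratios scaling, 431 from transcripts of 1000 nt or more, 29 to 173 with 1 library left out) and 1593 in cerebellum (830 without a filter, 2570 from the longer transcripts, 264 to 1776). Cerebellum against forebrain called 1675 under IL-34 (814 to 1735 with 1 library left out) and 833 under CSF-1 (1450 from the longer transcripts, 414 to 914). The region by ligand difference called 18 (1 from the longer transcripts, 0 to 110).

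Deviations of same-numbered libraries from their group means correlated at -0.0791, -0.0133 and -0.0813 in cerebellum and -0.396, 0.128 and -0.425 in forebrain. Among differently numbered libraries, forebrain IL-34 replicate 1 and forebrain CSF-1 replicate 3 reached 0.543. Cerebellar and forebrain libraries were not compared in this way. With so few libraries per group these values cannot settle whether cultures were paired. With the replicate number as a block, 83 genes were called between the ligands in forebrain and 986 in cerebellum.

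Chosen after seeing the data were the alternatives for the counts of list genes with no overlap. The 11 choroid plexus genes with cerebellum above forebrain became 21 of 39 over CSF-1 libraries alone, 14 of 38 over IL-34 libraries alone and 11 to 15 with 1 library left out. Over 3 against 3 libraries the share of all genes was itself larger, 11.4% with CSF-1 and 8.82% with IL-34, and 8.53% and 12.2% for the reverse. The 0 genes with the reverse became 1 with median-of-ratios scaling (Cab39l), 1 from the longer transcripts (Trpv4), 2 over CSF-1 and 2 over IL-34 libraries alone, and 0 to 1 with 1 library left out. For the ependymal list, IL-34 libraries alone gave 3 of 29 genes with cerebellum above forebrain and 5 of 29 with the reverse (10.3% and 17.2%, beside those 8.82% and 12.2%), where all libraries gave 1 and 2.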

Other observations

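Stmn2, a microtubule regulator of neurons and the neuronal marker whose regions did not overlap, was lower in cerebellum in the fit without a filter, by -0.71 under IL-34 (limma adjusted p = 0.0076) and by -0.75 under CSF-1 (limma adjusted p = 0.00785). Tmem119, a marker of mature microglia, was higher in cerebellum by 1.01 under both ligands (limma adjusted p = 0.000256 under IL-34 and 0.000376 under CSF-1), a call that held in all 17 alternative fits of each. P2ry12, another microglial marker, was the other one whose regions did not overlap and went the opposite way, at 7.1 to 9.81 TPM in cerebellum and 9.93 to 11.7 TPM in forebrain, by -0.38 under IL-34 and -0.29 under CSF-1 (limma adjusted p = 0.0653 and 0.189), and did not pass. Among border-associated macrophage genes outside the folate family, Mrc1 was lower in cerebellum by -0.45 under IL-34 and -0.34 under CSF-1 (limma adjusted p = 0.00426 and 0.0298; without any 1 CSF-1 library the second was up to 0.0945 and did not pass), and Clec4n by -0.44 and -0.41 (limma adjusted p = 0.00283 and 0.00654). Ptgds passed the filter on low values only through cerebellum, so its ligand difference is given from the fit without a filter. In cerebellum it was higher with IL-34 by 0.88 (standard error 0.19, limma adjusted p = 0.0435). That call held in 2 of 14 further unfiltered fits, with adjusted p up to 0.138. It ended with a pseudocount of 0.1 and without any library but cerebellar CSF-1 replicate 2.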
